A study of Mus musculus with 10 samples.

Results

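Melanocytes and their precursors, the melanoblasts, were examined in single-cell RNA sequencing of embryonic mouse back skin. The cells were chosen by measured expression. A cell was taken as melanocyte-gated when the UMIs of Dct, Pmel, Mlana and Tyrp1 summed to at least 10, at least 2 of the 4 genes were detected, and Krt5 and Krt14 together had under 10 UMIs. A UMI is a molecular tag that marks 1 captured RNA molecule. The rule found 1793 cells among the 55482 kept cells of 10 libraries, which is 3.23%. To be kept, a cell needed more than 1000 and fewer than 6000 detected genes, with mitochondrial transcripts below 10% of its UMIs.

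The back skin came from embryos of mixed C57Bl/6J and CD-1 background. The study asked how skin develops without the histone acetyltransferase MOF (gene Kat8) or without the respiratory complex III subunit QPC (gene Uqcrq). MOF cKO skin (MOFfl/fl/K14Cre) was sampled at E15.5 and E16.5, each time as 2 libraries beside 2 control libraries. QPC cKO skin (QPCfl/fl/K14Cre) was sampled at E17.5 as a single library beside a single control library. K14Cre is driven by the Krt14 promoter of epithelial cells, so the deletions were directed at the epithelium and not at pigment cells. Controls were wild-type or heterozygous littermates, and which of these each control library held was not given in the sources used here. The methods count the MOF material as pairs of embryos and the QPC material as a single pair, and p-values measure the spread between these libraries. Which control library belongs with which cKO library was not given in the sources used here. The main tests are therefore unpaired, at E15.5 as at E16.5, and leave out any spread shared within a pair. At E15.5, MOF cKO replicate 6 was described from staining of the epidermis as mosaic for the deletion, and replicate 5 as homogeneous, so the replicates of that group are not equivalent.

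Melanoblasts arise from the neural crest and migrate through the dermis into the epidermis and hair follicles. Their fate depends on the transcription factors Mitf, Sox10 and Pax3 and on the receptors Kit and Ednrb, whose ligands are made by surrounding skin cells. Pigment is made in melanosomes, where tyrosinase (Tyr) opens melanin synthesis, Dct and Tyrp1 carry out later steps and Pmel forms the fibrils on which melanin is laid down.

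MITF binds short E-box sequences before several pigment genes. The windows below come from the RefSeq promoter entries of GRCm38.p6, which cover 250 bases before to 50 bases after a gene's start, and show pigment genes whose levels are described in the text. Capitals mark the 7-base letters TCATGTG, or CACATGA where the match is on the other strand.
Tyr (chr7:87493522-87493574, minus strand): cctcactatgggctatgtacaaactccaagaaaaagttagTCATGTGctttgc
Tyrp1 (chr4:80834126-80834178, plus strand): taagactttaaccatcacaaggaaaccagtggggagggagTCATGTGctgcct
Dct (chr14:118052385-118052437, minus strand): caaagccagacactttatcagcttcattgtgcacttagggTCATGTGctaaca
Trpm1 (chr7:64153653-64153705, plus strand): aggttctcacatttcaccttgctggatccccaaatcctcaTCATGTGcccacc
Slc24a5 (chr2:125068074-125068126, plus strand): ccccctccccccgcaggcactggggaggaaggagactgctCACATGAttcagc
Mc1r (chr8:123406990-123407042, plus strand): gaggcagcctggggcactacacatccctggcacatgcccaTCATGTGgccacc

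The first motif base lay 22 bases before the start of Tyr, 47 before that of Tyrp1, 151 before that of Dct, 142 before that of Trpm1, 13 before that of Slc24a5 and 52 before that of Mc1r. Dct held a second match, on the other strand, 232 bases before its start. The same letters on either strand were found in 1165 of 27025 genes with an entry, or 4.31%. Among the melanin synthesis and melanosome genes, 27 of 32 had an entry and 5 of these held the motif, namely Tyr, Trpm1, Slc24a5, Hps1 and Slc7a11. None of the 12 lineage transcription factors with an entry held it. A match describes the letters of the window and is no evidence of binding.

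The gate cut through a gap in the data. Only 5 cells had a gate sum of 5 to 9 UMIs with the other criteria met, 48 cells had 10 to 19 UMIs and 1745 cells had 20 or more, up to 876. The label was checked on genes that the gate did not use, after thinning each cell to 5000 UMIs. Mitf was then detected in 40% to 92.9% of gated cells per library and in 1.77% to 4.88% of fibroblast-gated cells. Tyr was detected in 74.5% to 95.3% of gated cells at E15.5 and E17.5, and at E16.5 in 57.1% and 60.5% of those in controls and 80% and 35.7% of those in MOF cKO, where the shares rest on 5 to 38 cells. In E17.5 fibroblast-gated cells, Tyr was detected in 0.236% in control and 0.667% in QPC cKO. Before thinning, 11.9% of control and 29.0% of QPC cKO fibroblast-gated cells held any UMI of a gate gene, so stray pigment RNA was more frequent in the QPC cKO library. Median depth was 20335 UMIs in gated and 23197 UMIs in fibroblast-gated E17.5 control cells.

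Total UMIs per library ran from 13609345 to 203392303, and the median UMI count of gated cells from 8822 to 20335. No cell barcode was shared between gated cells of different libraries, and at most 36 barcodes of kept cells were shared by any pair. Transcripts typical of other cell types were also counted in gated cells. Erythroid marker genes summed to 1968 to 26981 CPM (UMI counts scaled to a library total of 1e+06) at E15.5 and E16.5 and to 7 CPM or less at E17.5. In E17.5 control fibroblast-gated cells (at least 200 UMIs of Col1a1, Col1a2 and Col3a1) the median Krt5 and Krt14 sum was 9 UMIs, close to the gate's keratin limit. Raising that limit to 50 UMIs was tried only once the values were known, and added 60 gated cells in the E17.5 control, 39 in the QPC cKO and 0 to 9 in each other library. Intervals given here cover counting error only.

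At E17.5 the melanocyte-gated share was far higher in the QPC cKO library than in the control library. The control held 74 gated cells among 5353 kept cells, or 1.38% (95% Wilson interval 1.10 to 1.73). The QPC cKO held 935 among 6118, or 15.3% (14.4 to 16.2). The difference was 13.9 percentage points (Newcombe interval 12.95 to 14.9), a ratio of 11.1 (8.75 to 13.97). With the keratin limit at 50 UMIs the shares were 2.50% and 15.9%, a ratio of 6.36 (5.33 to 7.59). Each group was 1 library, so no test between genotypes was possible, and differences of dissection or dissociation between the libraries cannot be told apart from genotype.

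The share was also read against other denominators and limits. Cells with at least 50 keratin UMIs made up 28.3% of control and 15.3% of QPC cKO kept cells. Counted against only the cells under the keratin limit, the melanocyte-gated share was 3.24% in control and 18.9% in QPC cKO. The median mitochondrial share of gated cells was 5.0% and 5.3%. With a stricter limit of 5% mitochondrial UMIs the shares were 0.912% and 7.63%.

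**Figure D1:**
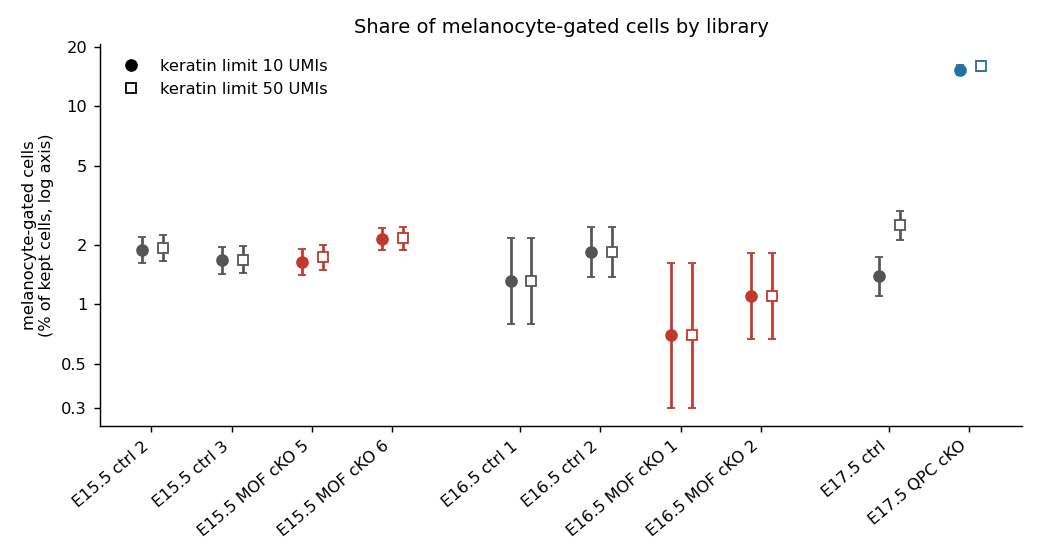
Melanocyte-gated cells as percent of kept cells in each of the 10 libraries, on a log axis, with 95% Wilson intervals. Filled circles use the keratin limit of 10 UMIs and open squares that of 50 UMIs. The E17.5 QPC cKO library stands at 15.3% and the other 9 libraries between 0.698% and 2.13% under the limit of 10.

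At E15.5 the shares overlapped between genotypes. Control replicates 2 and 3 held 158 of 8396 kept cells (1.88%) and 152 of 9117 (1.67%), and MOF cKO replicates 5 and 6 held 167 of 10179 (1.64%) and 227 of 10653 (2.13%). The means were 1.77% ± 0.152 (SD, n = 2) and 1.89% ± 0.347 (SD, n = 2), with a two-sided exact permutation p of 1. Without MOF cKO replicate 6, the mosaic one, the difference was -0.13 points. At E16.5 both MOF cKO libraries were below both controls. Control replicates held 15 of 1140 cells (1.32%) and 45 of 2447 (1.84%), and MOF cKO replicates held 5 of 716 (0.698%) and 15 of 1363 (1.10%). The difference was -0.68 percentage points, and its exact permutation p of 0.333 is the smallest that 2 libraries against 2 allow. Permuted within both stages together, the difference was -0.28 points (exact permutation p = 0.389, smallest possible 0.0556). It was -0.77 points (exact permutation p = 0.0556) with the mitochondrial limit at 5% and -0.75 points (exact permutation p = 0.111) against cells under the keratin limit. At E15.5 the sign depended on the denominator. Among cells under the keratin limit the MOF cKO mean was 2.18% against 2.59% in controls, and keratin-high cells made up 8.58% and 13.7% of MOF cKO against 28.3% and 28.2% of control kept cells. With the mitochondrial limit at 5% the E15.5 shares were 1.38% and 1.43% in controls and 0.752% and 0.433% in MOF cKO, without overlap (exact permutation p = 0.333), while the median mitochondrial share of gated cells was 4.87% and 4.56% in controls and 5.19% and 6.31% in MOF cKO.

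Within the gated cells of E17.5, the pigment genes of the 2 libraries were close in level. The 4 gate genes, given as a description because they chose the cells, summed to 9951 CPM in control and 9706 CPM in QPC cKO. Dct stood at 4921 and 5086 CPM, Pmel at 3866 and 3724 CPM, Mlana at 1022 and 786 CPM, and Tyrp1 at 142 and 111 CPM. The 32 melanin synthesis and melanosome genes, which the gate did not use, summed to 6937 CPM (exact Poisson interval 6804 to 7073) in control and 6843 CPM (6805 to 6882) in QPC cKO.

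Several abundant genes of melanin synthesis had overlapping intervals in the 2 libraries. Tyr was at 673 CPM in control and 697 CPM in QPC cKO. Slc24a5, a melanosomal ion exchanger, was at 1252 and 1190 CPM. Cd63, a tetraspanin that sorts Pmel, was at 2287 and 2233 CPM. Intervals did not overlap for Slc45a2, a melanosomal transporter, at 363 and 319 CPM, and for Trpm1, a cation channel, at 440 CPM (406 to 475) and 357 CPM (349 to 366). Higher in the QPC cKO library was Gpnmb, a Pmel-related glycoprotein, at 206 CPM (Poisson interval 183 to 230) in control against 407 CPM (397 to 416) in the QPC cKO library, which is 0.98 as a log2 ratio of CPM + 1. Mlph, which links melanosomes to myosin, was lower, at 58.3 and 29.2 CPM. Of the 30 genes of the list with at least 20 UMIs in either library, 1 was past 2-fold upward (Oca2, 1 UMI in control and 67 in QPC cKO, with overlapping intervals of 0.017 to 3.78 and 2.92 to 4.79 CPM) and 0 downward. Over all 11811 genes, 6.67% were past 2-fold, 4.38% upward and 2.29% downward. Gated cells held 1474023 UMIs in control and 17769360 UMIs in QPC cKO. Low genes could therefore reach 20 UMIs more easily through QPC cKO, which bears on each upward count at E17.5. Without the cells holding mast cell transcripts, described further on, 543 of 11687 genes were past 2-fold upward and 135 downward, against 517 and 271 with them. The median log2 ratio of the list was -0.05, and that of all genes 0.0041. With the keratin limit at 50 UMIs, 2 of 31 genes were past 2-fold upward (Oca2 and Gpnmb).

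The 16 lineage transcription factors with enough UMIs differed by less than 2-fold between the libraries, where 6.67% of all genes were past 2-fold. Mitf, the lineage regulator, was at 592 and 581 CPM in control and QPC cKO. Pax3 was at 614 and 602 CPM, Sox10 at 229 and 246 CPM, each with overlapping intervals. Intervals did not overlap for Foxd3, Tfap2b and Zeb2. Foxd3, a factor of early neural crest cells, was at 48.8 CPM in control (38.2 to 61.5) and 95.2 CPM in QPC cKO (90.7 to 99.8), Tfap2b at 239 and 176 CPM, and Zeb2 at 473 and 401 CPM. The log2 ratios of the 16 factors ran from -0.44 to 0.95.

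Some receptors and signalling genes differed between the libraries. Mc1r, the melanocortin receptor that raises eumelanin synthesis, was at 195 CPM (Poisson interval 173 to 219) in control against 87.1 CPM (82.8 to 91.6) in the QPC cKO library, or -1.16 as a log2 ratio. Kit, the receptor for Kit ligand, was at 552 CPM (514 to 591) and 362 CPM (353 to 371). The whole receptor and signalling list summed to 2238 and 1920 CPM, and to 2298 and 1933 CPM without the cells holding mast cell transcripts, described further on. Bcl2, a survival factor of the lineage, was at 149 and 95.3 CPM. Ednrb, the endothelin receptor, was at 856 and 898 CPM, with overlapping intervals in the 2 libraries. Dusp6, a feedback inhibitor of ERK signalling, was at 21.0 and 48.0 CPM. Of 17 genes in the list, 2 were past 2-fold upward (Dusp6, and Axl with 0 UMIs in control and 27 in QPC cKO) and 1 downward (Mc1r). Among all genes 4.38% were past 2-fold upward and 2.29% downward. The Axl intervals overlapped, at 0 to 2.50 CPM in the much smaller control pool and 1.001 to 2.21 CPM in QPC cKO. Under the wider keratin limit 0 genes of the list were past 2-fold upward and 1 downward, beside 1.74% and 1.41% of all genes. With the keratin limit at 50 UMIs, Mc1r was again past 2-fold at 176 and 87.0 CPM, Kit was at 535 and 361 CPM, and Gpnmb at 201 and 407 CPM, whereas Dusp6 came to 27.0 and 47.7 CPM, a log2 ratio of 0.80.

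Kit ligand and endothelin 3 were read in the surrounding cells. Kitl was highest in fibroblast-gated cells, at 247 CPM in control and 193 CPM in QPC cKO, and stood at 85.3 and 82.2 CPM in keratin-high cells. Edn3 stood at 13.1 and 19.6 CPM in fibroblast-gated cells. In gated melanocytes Kitl was at 5.43 and 3.04 CPM.

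**Figure D2:**
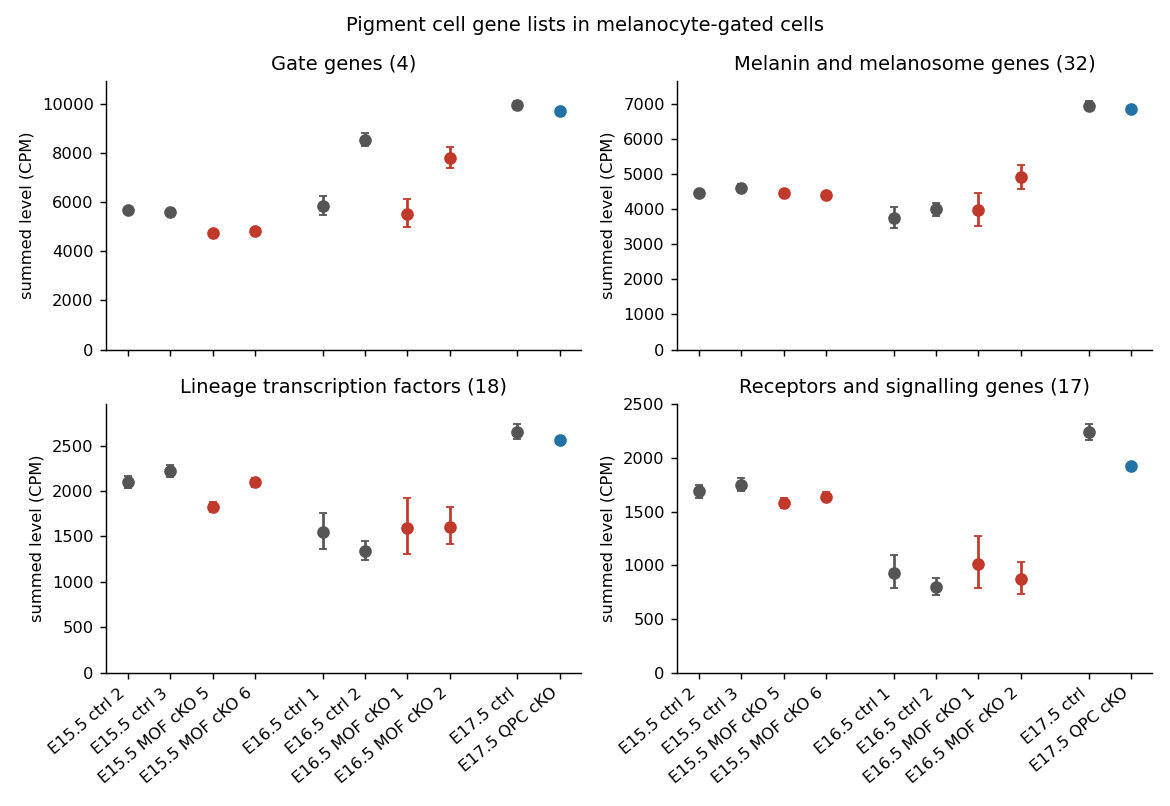
Summed CPM of 4 gene lists in melanocyte-gated cells of each library, with exact Poisson intervals that cover counting error only. The melanin and melanosome list stands at 6937 and 6843 CPM in the E17.5 libraries and between 3753 and 4896 CPM in the earlier ones.

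G2/M phase genes were higher in the gated QPC cKO library, and the size of that difference depended on the keratin limit. The 52 G2/M phase genes summed to 3595 CPM in control and 7216 CPM in QPC cKO, all 52 had a positive log2 ratio and 26 were past 2-fold. Among all genes under the keratin limit of 10 UMIs, 4.38% were past 2-fold upward, and the median log2 ratio was 0.0041. With the keratin limit at 50 UMIs the sums were 5412 and 7274 CPM, all 52 ratios stayed positive, none was past 2-fold and the list's median log2 ratio was 0.43. Per cell under the limit of 10, their share had a median of 16.503 UMIs per 10000 in control and 20.4 in QPC cKO, with lower quartiles of 12.8 and 13.01 and upper quartiles of 27.0 and 77.5, so the cells differed mainly at the upper end. The 42 S phase genes differed less, at 2552 and 2986 CPM, and at 2675 and 3029 CPM with the wider limit. Under the limit of 10, 5 of the 42 were past 2-fold upward, beside 4.38% of all genes, and 10 had a negative log2 ratio. Under the limit of 50, 0 of the 42 were past 2-fold and 7 had a negative log2 ratio. Among all 11900 genes tested under the wider limit, 3.15% were past 2-fold, 1.74% upward and 1.41% downward. The gated control cells with 10 to 49 keratin UMIs were deeper than those under the limit, with medians of 22870.5 and 20335 UMIs. Mki67, a marker of cycling cells, was detected after thinning to 5000 UMIs in 21.6% of gated control cells (95% Wilson interval 13.8 to 32.3) and 34.8% of gated QPC cKO cells (31.8 to 37.9), and with the wider limit in 31.3% (24.1 to 39.6) and 35.4% (32.4 to 38.4). In fibroblast-gated cells Mki67 was detected in 19.2% and 26.9%. Fibroblast-gated cells differed in G2/M phase genes in the same direction. G2/M phase genes summed to 3557 and 5565 CPM in fibroblast-gated cells and 3525 and 3492 CPM in keratin-high cells of control and QPC cKO.

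Glycolysis genes differed the other way and by more. This list of 17 genes was assembled after earlier results were seen and is given without a test. It summed to 7357 CPM (Poisson interval 7219 to 7497) in gated control cells and 3245 CPM (3218 to 3271) in gated QPC cKO cells, to 7620 and 3247 CPM with the wider keratin limit, and to 7449 and 3189 CPM without the cells holding mast cell transcripts. In gated cells of the E15.5 and E16.5 libraries the list ran from 3194 to 5154 CPM and from 3537 to 4937 CPM. The QPC cKO value lay within the E15.5 range, and the E17.5 control value lay above both ranges. Of its 16 genes with enough UMIs, 12 were past 2-fold downward under either limit, against 2.29% of all genes under the limit of 10. Ldha, the lactate-forming dehydrogenase subunit, was at 1230 and 467 CPM. Aldoa, an aldolase, was at 783 and 258 CPM. Outside the 4 most abundant genes, and named after their values were seen, stood Pgk1, a kinase of the pathway, at 500 and 196 CPM, Slc16a3 and Gpi1. Slc16a3, a lactate exporter, was at 42.1 CPM (32.2 to 53.9) and 2.98 CPM (2.23 to 3.9). Gpi1, an isomerase of the pathway, was at 302 and 220 CPM.

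The direction for glycolysis genes was shared with keratin-high cells and not with fibroblast-gated cells. The glycolysis genes summed to 6715 CPM in control and 4263 CPM in QPC cKO keratin-high cells. In fibroblast-gated cells they summed to 2608 and 3438 CPM. Keratinocyte markers in the gated melanocytes summed to 596 CPM in control and 387 CPM in QPC cKO, and the part of keratinocyte RNA in the glycolysis values was not tested. The 75 nuclear-encoded OXPHOS genes, the subunits of oxidative phosphorylation, summed to 23371 and 23840 CPM in the gated melanocytes, with 0 of 74 measured genes past 2-fold, beside 6.67% of all genes. Integrated stress response genes summed to 585 and 660 CPM.

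Uqcrq, the gene deleted in the QPC cKO, was at 283 CPM (Poisson interval 256 to 311) in gated control cells and 206 CPM (199 to 213) in gated QPC cKO cells. In keratin-high cells Uqcrq was at 123 and 26.8 CPM, and in fibroblast-gated cells at 65.3 and 121 CPM. After thinning to 5000 UMIs, Uqcrq was detected in 74.3% of gated control cells (95% Wilson interval 63.3 to 82.9) and 59.3% of gated QPC cKO cells (56.1 to 62.4), against 27.3% and 43.6% of fibroblast-gated cells.

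**Figure D3:**
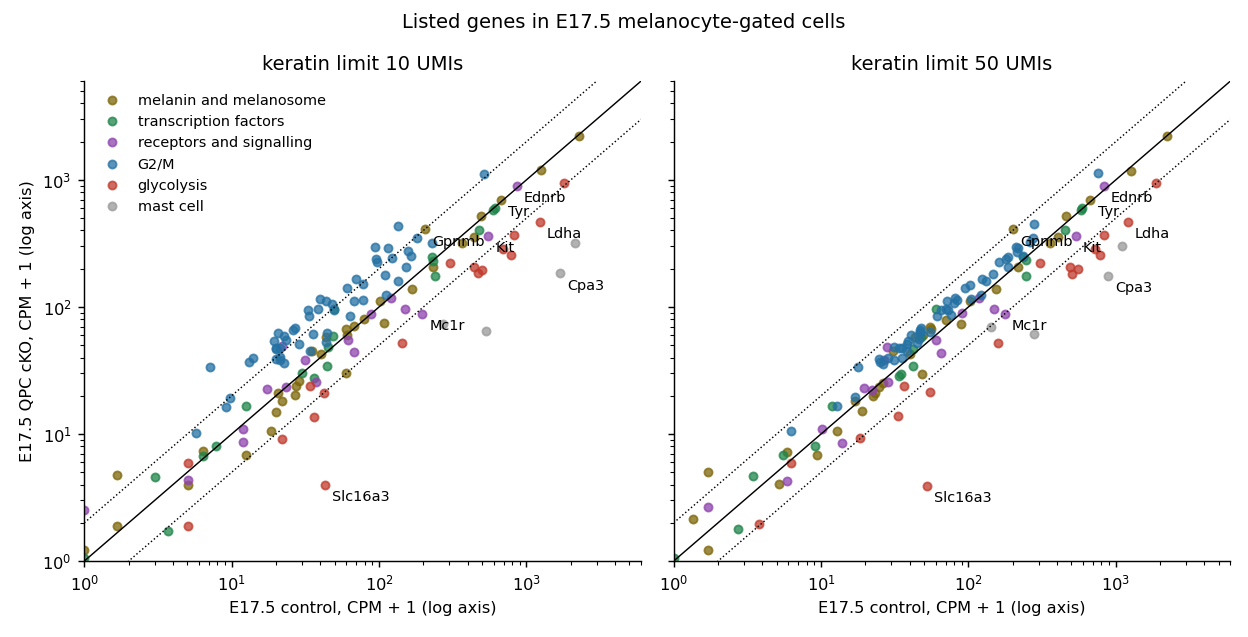
Level of each listed gene in gated E17.5 cells, control on the x axis and QPC cKO on the y axis, both as CPM + 1 on log axes, under the keratin limits of 10 UMIs (left) and 50 UMIs (right). The solid line marks equal levels and the dotted lines a 2-fold difference. Among the melanin and melanosome genes that reached 20 UMIs in a library, Oca2 lies past a dotted line on the left, and Oca2 and Gpnmb do on the right. In both panels 12 of 16 glycolysis genes lie below the lower dotted line, and G2/M genes move toward the line at the limit of 50.

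**Figure D4:**
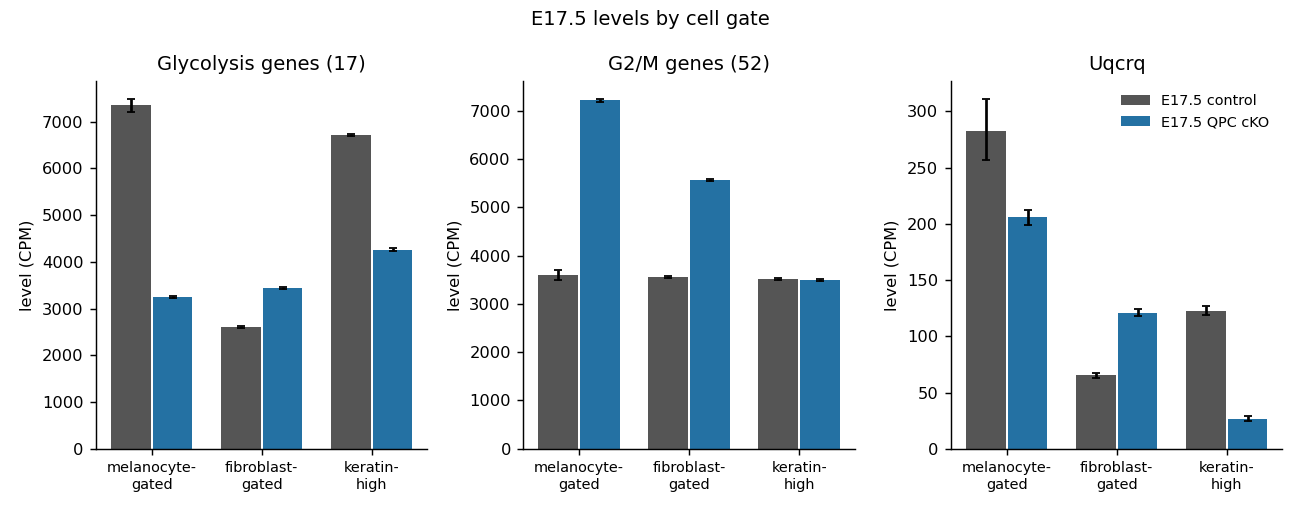
Glycolysis genes, G2/M phase genes and Uqcrq in 3 cell gates of the E17.5 libraries, in CPM with exact Poisson intervals, melanocyte-gated cells under the keratin limit of 10 UMIs. Uqcrq stands at 123 CPM in control and 26.8 CPM in QPC cKO keratin-high cells and at 283 and 206 CPM in melanocyte-gated cells.

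The genes with the largest E17.5 ratios included many that no pigment list holds. Of the 10 named as lowest in QPC cKO relative to control, Cpa3, Tpsb2, Cma1 and Hdc are products of mast cells. The remaining 6 were Plek, Gata2, Rgs1, Slc6a4, Fxyd5 and Ndufa4l2. Cpa3 was at 1697 and 182 CPM and Cma1 at 2124 and 315 CPM. At least 10 UMIs of Cpa3, Cma1, Tpsb2 and Mcpt4 occurred in 4 of 74 gated control cells and 14 of 935 gated QPC cKO cells. Without those cells the 4 mast genes summed to 32.8 and 6.74 CPM. Plek and Gata2 had log2 ratios of -3.04 and -2.66 over all gated cells and 1.35 and 0.00 without those cells. Rgs1, Slc6a4 and Fxyd5 moved from -2.64, -2.64 and -2.61 to -0.37, -0.63 and -0.74. Ndufa4l2, related to a respiratory chain subunit, was at 57.7 and 8.67 CPM with a log2 ratio of -2.60, and -2.70 without those cells. Macrophage genes differed the other way at low levels. Of the 11 immune and mast cell markers that reached 20 UMIs in a library, 7 were past 2-fold downward and 3 upward, namely the macrophage genes Csf1r, C1qa and C1qb. Among all genes 2.29% were past 2-fold downward and 4.38% upward. C1qb had 0 UMIs in control and 83 in QPC cKO, so it reached 20 UMIs only through the library where it was higher. That limit was easier to reach in the much larger QPC cKO pool. With the keratin limit at 50 UMIs, Pf4, C1qb, F13a1 and Mrc1 were among the 10 highest genes, Pf4 at 3.15 and 24.3 CPM and C1qb at 1.05 and 8.15 CPM. Gpnmb, higher in QPC cKO, is also a gene of macrophages, and the part of such transcripts in its level was not tested. The 10 named as highest were G530011O06Rik, Olfml1, Gm47761, Stil, Psrc1, Gm21860, Gm15726, 4933404O12Rik, Casp4 and Hist1h2an, each with 1 to 15 UMIs in the control cells. Stil and Psrc1, both mitotic genes, were at 2.71 and 16.8 CPM and at 6.11 and 32.5 CPM, and their log2 ratios were 0.61 and 0.93 with the keratin limit at 50 UMIs.

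The gated cells differed among themselves in Tyrp1. Tyrp1 was detected in 6.67% to 40% of gated cells per library, and a few cells held most of it. At E17.5, 7 of 74 control cells (9.46%, Wilson interval 4.66 to 18.3) and 64 of 935 QPC cKO cells (6.84%, 5.40 to 8.65) had 10 or more Tyrp1 UMIs, and they held 70.5% and 65.7% of all Tyrp1 UMIs. As a description of cells split by a gate gene, Pmel stood at 5933 CPM in these control cells and 2785 CPM in control cells without Tyrp1, and at 7265 and 2995 CPM in QPC cKO. Kit went the other way, at 338 and 584 CPM in control and 290 and 376 CPM in QPC cKO. Oca2, a melanosomal ion transporter, was at 37.0 CPM in the Tyrp1-high QPC cKO cells and 0.50 CPM in those without Tyrp1. In the much smaller control pool Oca2 was at 0 CPM in both sets of cells, so this contrast rests on the QPC cKO library at E17.5.

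At E15.5 few genes differed between gated cells of MOF cKO and control skin. Kat8, the deleted gene, was at 16.8 and 11.4 CPM in controls 2 and 3 and at 7.81 and 7.602 CPM in MOF cKO 5 and 6. The groups did not overlap, but 24.9% of all genes were lower in MOF cKO without overlap. The log2 fold change of Kat8 was -0.81 ± 0.32 (SE), with an edgeR adjusted p of 0.572. In keratin-high cells, where Krt14-Cre acts, Kat8 was at 13.1 and 13.8 CPM in controls and 13.3 and 10.0 CPM in MOF cKO, and these values overlapped. Whether the 3′ reads of Kat8 fall in the deleted stretch was not given in the sources used here. In edgeR's quasi-likelihood test of summed counts, 9 of 10054 genes (0.0895%) passed an adjusted p of 0.05, 4 higher (0.0398%) and 5 lower (0.0497%) in MOF cKO, and 830 genes had an unadjusted p under 0.05. None of the 28 measured melanin and melanosome genes, 14 lineage factors or 15 receptors and signalling genes was among them. In simulated counts of this design, 59.9% of genes changed 2-fold and 94.8% of genes changed 4-fold were recovered. The simulation drew each gene at the fitted dispersion trend, with no mosaic replicate and no RNA of other cell types. Recovery in the real libraries may be lower.

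Iqgap2, a scaffold protein that binds Cdc42 and Rac1, rose. It was at 32.5 and 23.4 CPM in controls and 117 and 95.6 CPM in MOF cKO, a log2 fold change of 1.98 ± 0.20 (SE, edgeR adjusted p = 0.0103). In fibroblast-gated cells Iqgap2 was at 13.8 and 12.6 CPM in controls and 18.1 and 18.8 CPM in MOF cKO. Cdc42ep3, a Cdc42 effector, fell from 146 and 127 CPM to 65.9 and 71.9 CPM, a log2 fold change of -0.93 ± 0.14 (edgeR adjusted p = 0.0468), while its fibroblast levels were 55.6 and 58.3 CPM in controls and 65.5 and 49.3 CPM in MOF cKO. Hist1h4i, a histone H4 gene, rose from 38.0 and 36.3 CPM to 72.2 and 77.8 CPM (edgeR adjusted p = 0.0468). Each of these groups was clear of the other. The calls of Cdc42ep3 and Hist1h4i did not pass the threshold under every setting, with edgeR adjusted p-values of 0.0512 to 0.0677 and 0.0539 to 0.0842 where they missed it.

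Msmo1 and Fdps, enzymes of sterol and isoprenoid synthesis, fell. Msmo1 was at 98.7 and 82.0 CPM in controls and 27.5 and 35.4 CPM in MOF cKO, a log2 fold change of -1.46 ± 0.18 (edgeR adjusted p = 0.0257). Fdps was at 143 and 96.9 CPM and at 49.9 and 41.8 CPM, a log2 fold change of -1.33 ± 0.20 (edgeR adjusted p = 0.0468). Under 3 of the alternative settings the edgeR adjusted p of Fdps was 0.0539 to 0.0622. The list of 22 cholesterol synthesis genes, drawn up after these 2 calls were seen and therefore given without a test, summed to 1277 and 937 CPM in controls and 573 and 568 CPM in MOF cKO. Its median log2 fold change was -0.83, beside 0.006 over all genes, and in 18 of 22 genes both MOF cKO libraries were below both controls, beside 24.9% of all genes. Cholesterol synthesis genes were also lower in fibroblast-gated cells of MOF cKO, at 875 and 989 CPM against 1379 and 1158 CPM.

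The remaining called genes were low or belong to other cell types. Lgals7, a galectin of stratified epithelia, fell from 53.7 and 82.0 CPM to 17.49 and 25.7 CPM (edgeR adjusted p = 0.0477, and 0.0539 to 0.0825 under 4 alternative settings), while the 14 keratinocyte marker genes summed to 169 and 370 CPM in controls and 75 and 106 CPM in MOF cKO. The other 3 called genes had under 50 CPM in both groups and are named after their values were seen. Cd74, the MHC class II invariant chain of immune cells, was at 1.63 and 0.497 CPM in controls and 35.0 and 17.54 CPM in MOF cKO. Cox4i2, a cytochrome oxidase isoform, was at 1.63 and 0.497 CPM and at 16.0 and 15.8 CPM. Fam81a was at 40.7 and 36.8 CPM and at 12.7 and 13.4 CPM, and its call did not pass the threshold under every alternative setting. Some marker lists of other cell types differed between the E15.5 groups without overlap. The 7 erythroid genes summed to 21431 and 16676 CPM in controls and 11738 and 6132 CPM in MOF cKO, and muscle and pericyte markers to 3 and 7 CPM and to 47 and 30 CPM. Dermal fibroblast markers overlapped, at 2605 and 1226 CPM in controls and 2032 and 3544 CPM in MOF cKO, as did immune and mast cell markers, at 934 and 1683 CPM and at 263 and 1653 CPM. Their part in the called genes was not tested.

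**Figure D5:**
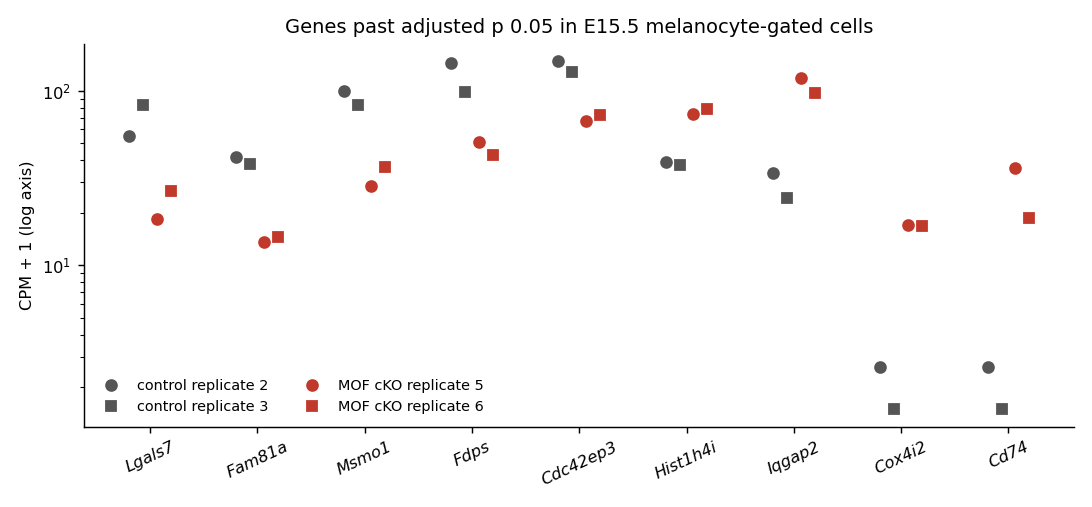
Level of the 9 genes past an adjusted p of 0.05 in gated E15.5 cells, as CPM + 1 on a log axis, with 1 point for each library (circle and square for the 2 replicates of a group). In each gene both MOF cKO points lie on the same side of both control points.

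No pigment list gene passed the edgeR threshold at E15.5. Tyr was at 344 and 376 CPM in controls and 385 and 407 CPM in MOF cKO, Mitf at 482 and 502 CPM and at 419 and 460 CPM, and Kit at 521 and 547 CPM and at 504 and 497 CPM. The edgeR adjusted p-values were 0.714, 0.881 and 0.966. Dct, a gate gene, was at 3090 and 3162 CPM in controls and 2346 and 2376 CPM in MOF cKO. The melanin and melanosome list summed to 4446 and 4605 CPM in controls and 4464 and 4412 CPM in MOF cKO (exact permutation p = 0.667). Of its 28 measured genes, 4 were higher and 8 lower in MOF cKO without overlap, beside 14.8% and 24.9% of all genes. The lineage factors summed to 2103 and 2216 CPM and to 1825 and 2098 CPM, without overlap (exact permutation p = 0.333, the smallest possible), and 3 of 14 factors were higher and 7 lower without overlap. Receptors and signalling genes summed to 1688 and 1749 CPM in controls and 1581 and 1636 CPM in MOF cKO, also without overlap (exact permutation p = 0.333), and 0 of 15 were higher and 9 lower without overlap. Glycolysis genes, with no test, summed to 3194 and 3470 CPM in controls and 5154 and 4460 CPM in MOF cKO. Gated control cells had medians of 10568.5 and 12039.5 UMIs and gated MOF cKO cells 15442 and 14221 UMIs. Over 19 lists the smallest Benjamini-Hochberg adjusted permutation p was 0.792.

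The E16.5 libraries held too few gated cells for a fit across genes, since MOF cKO replicate 1 had 5. Kat8 was at 18.99 and 4.11 CPM in controls and 14.6 and 0 CPM in MOF cKO, and these values overlapped. Melanin and melanosome genes summed to 3753 and 3988 CPM in controls and 3961 and 4896 CPM in MOF cKO. Tyr was at 234 and 201 CPM in controls and 322 and 133 CPM in MOF cKO, so the groups overlapped. Mlana, a gate gene given as a description, was at 741 and 940 CPM in controls and 1783 and 2128 CPM in MOF cKO. In MOF cKO replicate 1 the single cell with a Tyrp1 UMI stood at 6162 CPM of Mlana and the other 4 cells at 1181 CPM. G2/M phase genes summed to 5405 and 5224 CPM in controls and 3011 and 2907 CPM in MOF cKO (exact permutation p = 0.333, the smallest possible), with 23 of 37 measured genes lower without overlap, beside 21.8% of all genes. Markers of other cell types also separated these groups. Keratinocyte markers summed to 475 and 848 CPM in controls and 322 and 177 CPM in MOF cKO, and immune and mast cell markers to 120 and 45.2 CPM and to 175 and 697 CPM, and their part in the G2/M values was not tested. G2/M phase genes were lower in fibroblast-gated cells too, at 2475 and 2704 CPM in MOF cKO against 5778 and 5650 CPM.

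Across stages, the control libraries are given side by side without a test, because stage and, at E16.5, the gene annotation (27998 genes listed, against 32285) changed together. Which kit version each E15.5 and E16.5 library used was not given in the sources used here, so chemistry may also differ. The gate genes summed to 5686 and 5594 CPM at E15.5, 5842 and 8545 CPM at E16.5 and 9951 CPM at E17.5. Tyr was at 344 and 376 CPM, then 234 and 201 CPM, then 673 CPM. Slc24a5 was at 758 and 709 CPM, 753 and 628 CPM, and 1252 CPM. Ednrb was at 495 and 592 CPM, 184 and 222 CPM, and 856 CPM, and Mc1r at 79.7 and 55.1 CPM, 44.3 and 84.2 CPM, and 195 CPM. The E17.5 control was above all 4 earlier control libraries for Tyr, Slc24a5, Ednrb and Mc1r. Not every pigment gene followed this order. The gate genes Dct and Tyrp1 were higher in E16.5 control replicate 2 than in the E17.5 control. In cells without a Tyrp1 UMI, Dct was at 2453 and 2679 CPM in the E15.5 controls and 2850 and 4558 CPM in the E16.5 controls. It was at 3701 CPM in such cells of the E17.5 control. The lineage transcription factor list was highest in the E17.5 control, at 2655 CPM against 1340 to 2216 CPM in the earlier controls. G2/M phase genes summed to 6852 and 9036 CPM, then 5405 and 5224 CPM, then 3595 CPM. Under the wider keratin limit the E17.5 control stood at 5412 CPM, above both E16.5 controls, so its place in that order depended on the limit.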

How the data were processed

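Single-cell libraries of total back skin were made with the 10x 3′ kits and counted by the authors with Cell Ranger on mm10. The submitters' processing notes name Cell Ranger 6.1.2, and 1.3.1 as well for E16.5 and E17.5, without saying which files each made. The deposited matrices hold UMI counts per gene and barcode, not normalized. They were filtered with the study's limits. No doublet caller was run, so some gated cells may hold RNA of a second cell. Gate and keratin limits were applied in Python 3.11.15, and counts were summed per library over gated cells and given as CPM. At E15.5 sums were tested with edgeR 4.0.16 (filterByExpr, TMM, quasi-likelihood, Benjamini-Hochberg) in R 4.3.3, with DESeq2 1.42.0 as an alternative. The E16.5 fit was planned only with at least 10 gated cells per library. At E17.5 a gene counted as past 2-fold by its ratio of CPM + 1, a scale that understates changes of low genes, if one of the libraries held 20 or more of its UMIs. Genes named at E17.5 were the 10 highest and 10 lowest ratios that had 100 or more UMIs on one side and non-overlapping Poisson intervals, and at E15.5 up to 5 per direction past adjusted p 0.05, without overlap and with a group mean of at least 50 CPM; other named genes come from the lists. Both steps were tested on simulated data. Members and lists were chosen with earlier results of these data known. The keratin-high gate of 50 UMIs, the fibroblast gate, and the glycolysis, mast cell and cholesterol lists were set after values were seen.

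Alternatives changed the gate, the keratin, gene and mitochondrial limits, the denominator, depth, scaling, filter, pseudocount and the libraries included. A further comparison gate of the design is not reported here.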

Additional observations from a re-analysis of the deposited data

Results flagged for a closer look

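Summed CPM of the melanocyte lineage transcription factors differed in opposite directions between MOF cKO and control at the 2 stages. The log2 ratio of MOF cKO to control was -0.14 at E15.5, where both MOF cKO libraries were below both controls, and 0.15 at E16.5, where both were above. The nearest libraries of the 2 groups had overlapping Poisson intervals at each stage. E15.5 MOF cKO replicate 6 was at 2098 CPM (2050 to 2148) beside control replicate 2 at 2103 CPM (2037 to 2170). At the later stage MOF cKO replicate 1 was at 1593 CPM (1308 to 1922). Its nearest control, replicate 1, was at 1551 CPM (1363 to 1758). Of 19 lists tested, 8 separated the groups in the earlier stage and 7 in the later one. Both exact permutation p-values were 0.333, the smallest possible. The difference between the stages was not tested.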

How the results depend on the processing

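Of the 732 alternative values computed, 668 kept their direction and side of the threshold or moved by less than the replicate spread. With 1 library per group, E17.5 has no replicate spread. Of the values for the main results, 73 stayed the same, 16 moved and 3 reversed. Of the other values, 595 stayed the same, 28 moved, 14 were weaker and 3 reversed. The E15.5 share difference of 0.111 points turned to -0.81 with the 5% mitochondrial limit and -0.42 against cells under the keratin limit, and ranged from -0.13 to 0.36 when 1 library was left out, turning negative without MOF cKO replicate 6. The E17.5 share difference was 12.8 points without an upper gene limit, 6.72 with the 5% mitochondrial limit and 15.6 against cells under the keratin limit. The 9 genes called at E15.5 became 24 in DESeq2, 5 with library size alone, 198 without a filter on low counts, 5 with a gate of 5 UMIs, 16 without cells holding mast cell transcripts, and 24 to 85 when 1 library was left out (24 without MOF cKO replicate 5, 57 without MOF cKO 6, 85 without control 2, 64 without control 3), where the lone library is assumed to vary like the others. Cdc42ep3, Hist1h4i, Fdps, Lgals7 and Fam81a missed the threshold in 14 gene-by-setting values, with edgeR adjusted p-values of 0.0512 to 0.0842 (library size alone, gates of 5 or 20 UMIs, or without either MOF cKO library). The 788 genes past 2-fold at E17.5 became 375 with the keratin limit at 50 UMIs (207 higher, 168 lower), and the 271 lower genes became 135 without cells holding mast cell transcripts. At E17.5 the log2 ratio of the melanin list, -0.02, was 0.057 as a mean over cells, -0.065 without cells holding mast cell transcripts and 0.030 with the wider keratin limit, and that of the gate genes, -0.04, was 0.024 as a mean over cells and 0.0069 with the wider limit. The niche ligands at E16.5 went from 0.91 to -0.17 as a mean over cells. The causes were not tested. With the replicate block at E16.5 the share difference was -0.68 points (smallest possible exact p 0.5) and the melanin list's log2 ratio 0.19. Deviations of same-numbered libraries correlated at 0.03 across 4817 genes over 2 pairs. With 5 to 45 gated cells per library, counting error could hide a pairing, so this value cannot decide whether the numbers pair the samples. The replicate number was used only in this alternative. The gene fit at E16.5 and its alternatives were not run, because 1 library held 5 gated cells. The E16.5 values rest on 5 to 45 gated cells per library.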

Other observations

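Syt4, a synaptotagmin of secretory vesicles, differed widely between libraries of the same group and was singled out after its values were seen. At E15.5 it was at 109 and 0.497 CPM in control replicates 2 and 3 and at 169 and 1.46 CPM in MOF cKO replicates 5 and 6. At E16.5 it was at 171 and 220 CPM in controls and 146 and 158 CPM in MOF cKO, and at E17.5 it was at 582 CPM in control and 262 CPM in QPC cKO.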
